A study of Mus musculus with 6 samples.

Results

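The semaphorin, plexin, neuropilin, Eph, ephrin, Slit, Robo and netrin genes, together with the netrin receptors, were followed in NIH3T3 cells with and without a GGCT vector. Members were chosen by gene symbol: any Sema or Plxn gene with its number or letter, any Epha, Ephb, Efna or Efnb gene, Slit1 to Slit3, Robo1 to Robo4, Ntn1, Ntn3, Ntn4, Unc5a to Unc5d, Dcc, Neo1, Nrp1 and Nrp2. The rule itself was made with earlier results of these data known. The RefSeq table holds 69 such genes, and 68 of them were read by 117 probes on the arrays, out of 44702 genes or unnamed transcripts. Sema4b was the gene with no matched probe. NIH3T3 is an established line of mouse embryonic fibroblasts. The control group, labelled empty, carried the pCX4bsr retroviral control vector, and the group labelled GGCT-OE carried the retroviral vector that expresses GGCT (gamma-glutamylcyclotransferase). Both populations were stably infected and were kept in DMEM with 2% serum, and each group has 3 Agilent 1-colour arrays, 1 from each of 3 numbered experiments. The design text calls the experiments independent, but the labels describe a single establishment of each population, so a p-value here reflects variation from experiment to experiment and not between separately made cell populations.

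Guidance cues are ligands that steer moving cells and growing axons by attraction or repulsion. Class 3 semaphorins are secreted and bind receptor complexes of neuropilins and plexins, whereas the other vertebrate semaphorins stay on the membrane and bind plexins more directly. Ephrins are held on the cell surface and signal into cells that carry Eph receptor tyrosine kinases, and also backwards into the cell that bears the ephrin. Slits are secreted ligands of Robo receptors, and netrins act through Dcc, neogenin (Neo1) and the Unc5 receptors. In fibroblasts these systems are known for contact repulsion, cell spreading and migration.

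The share of probes well above background ran from 54.6% to 61.7% over the 6 arrays, and the 75th percentile of their signals from 380.0 to 471 units. All values below are log2 signals relative to the array's own 75th percentile, and differences are GGCT-OE minus empty. A gene is read from its brightest probe. Levels of different genes were not set against each other, because probes differ in brightness. Ggct itself read -0.57, -0.72 and -0.66 in control cells and -0.14, 0.20 and -0.16 in GGCT cells on a mouse probe that may or may not see the vector's transcript. It differed by 0.62 ± 0.12 (SE, n = 3 against 3, limma adjusted p = 0.0111), and by 0.47 and 0.67 without experiment 2 or 3 (adjusted p = 0.0729 and 0.100). All 10 fibroblast markers were well above background on all 6 arrays. With GGCT 2 were higher (Pdgfra by 0.86, Dcn by 0.46) and 5 lower (among them Col1a1 by -0.99 and Pdgfrb by -0.94). Their summed level lay between 10.3 and 10.6 in control cells and between 9.95 and 10.2 with GGCT. Such sums add signals before the log2 is taken, so they follow the brightest markers of a list and can hide changes in dim ones. Epcam, Cdh1, Ptprc, Tek, Emcn, Dcx and Olig2 were above background on none. The summed level of 6 neuron markers lay between 4.15 and 4.63 on the control arrays and between 4.05 and 4.55 with GGCT. Of 4 tested 1 was lower, Stmn2, by at least 9.16-fold, with no GGCT array above background. The 4 glia markers lay between 0.37 and 0.65 against -0.61 and -0.31, with 1 of 3 tested higher and 2 lower. The 5 leukocyte markers lay between 1.44 and 1.55 against 0.87 and 1.03, with 2 of 4 tested lower and 0 higher. The 5 endothelial ones lay between -2.78 and -2.47 against -1.87 and -1.59. Both tested were higher, Pecam1 by 0.43 and Cdh5 at least 2.18-fold, with no control array above background for Cdh5. The 5 epithelial ones lay between -2.75 and -2.31 against -2.08 and -1.57, and Krt8, the 1 tested, was higher by 1.18. Whether these shifts have a part in the values of the guidance genes was not tested.

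Of the 68 guidance genes, 47 were tested, because every array of 1 group or of both saw the gene's probe well above background, and 41 of these were above background on all 6 arrays. With GGCT 11 were higher and 9 lower at a limma adjusted p under 0.05, so 42.6% of the tested members were called, where 34.8% of all 23774 genes tested were. Higher calls made up 23.4% of the members and 17.5% of all genes, and lower calls 19.1% against 17.3%. At least 2-fold differences were found for 3 higher members (6.38%, against 3.63% of all genes) and for 4 lower members (8.51%, against 5.30%). The shares are thus of the same order as in the whole table, and the median difference of the members was -0.02, against 0.02 over all genes. For 25 of the 47 members all values of 1 group lay above all of the other (53.2%, against 49.3% of all genes). The median size of a difference, whatever its sign, was 0.44 for the members and 0.29 for all genes.

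Among 24 ligands 10 were higher and 4 lower (58.3% called), with a median difference of 0.19. Among 23 receptors 1 was higher and 5 lower (26.1% called), with a median of -0.11. In this fit 34.8% of all genes tested were called, 17.5% higher and 17.3% lower. With the experiment number as a block 12 ligands were higher and 6 lower (75% called), and 4 receptors higher and 7 lower (47.8% called). With that block 53.4% of all genes tested were called. No test of the difference between these lists was made. The 3 genes that rose at least 2-fold were Sema7a, Sema4g and Plxnb1, and the 4 that fell at least 2-fold were Sema3b, Slit2, Unc5a and Epha4.

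**Figure D1:**
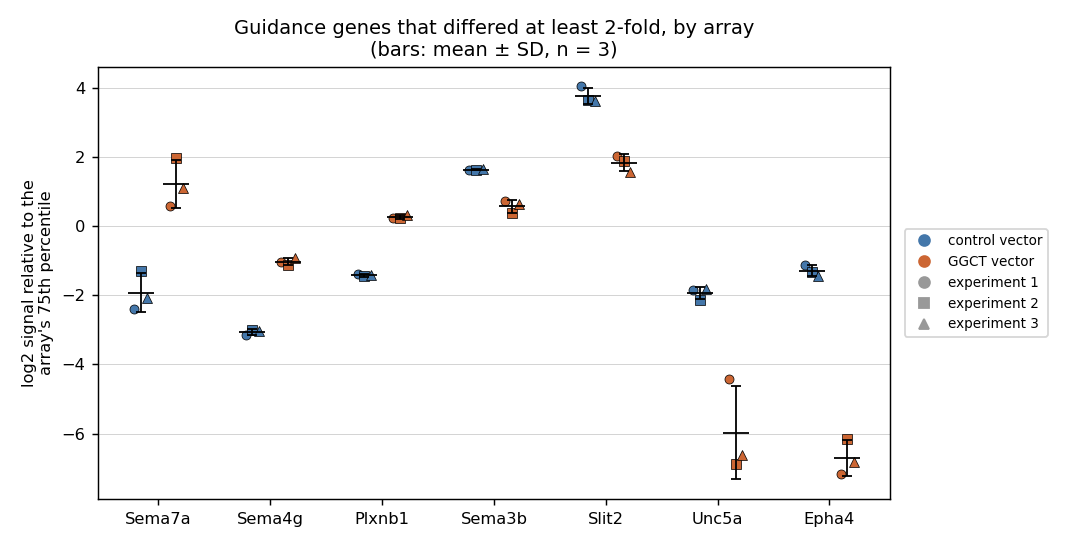
Log2 signal relative to the array's 75th percentile (vertical axis) of the 7 guidance genes that were called with a difference of at least 2-fold; each symbol is 1 array, its shape gives the experiment, and bars give the mean ± SD (n = 3). The control and GGCT arrays are apart for each gene, and the GGCT arrays of Unc5a spread from -6.88 to -4.41.

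The reference promoters of 4 of these genes are shown as examples, a semaphorin and a plexin that rose and an Eph receptor and a Slit that fell. They were chosen after their values were seen. Each run is the 250 bases before the annotated start in RefSeq (build GRCm38.p6), written 5′ to 3′ on the gene's own strand. Capitals mark matches, on either strand, to any of the motifs searched: GGGCGG (the Sp1 GC box), TATAAA (the TATA motif), TGACNNNGC (the antioxidant element), TGANTCA (AP-1), CACGTG (the E box) and GACCACCCA (GLI).
Sema7a, chr9:57939862-57940111, plus strand: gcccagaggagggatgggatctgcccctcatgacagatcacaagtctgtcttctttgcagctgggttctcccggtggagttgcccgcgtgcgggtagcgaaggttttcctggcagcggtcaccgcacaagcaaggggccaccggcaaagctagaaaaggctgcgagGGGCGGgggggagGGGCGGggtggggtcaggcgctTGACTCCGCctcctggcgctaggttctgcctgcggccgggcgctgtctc
Plxnb1, chr9:109095186-109095435, plus strand: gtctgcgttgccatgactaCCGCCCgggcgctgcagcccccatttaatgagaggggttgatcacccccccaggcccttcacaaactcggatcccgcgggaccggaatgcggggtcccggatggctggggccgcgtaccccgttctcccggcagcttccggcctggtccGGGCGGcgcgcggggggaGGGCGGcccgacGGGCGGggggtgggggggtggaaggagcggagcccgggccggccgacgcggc
Epha4, chr1:77515089-77515338, minus strand: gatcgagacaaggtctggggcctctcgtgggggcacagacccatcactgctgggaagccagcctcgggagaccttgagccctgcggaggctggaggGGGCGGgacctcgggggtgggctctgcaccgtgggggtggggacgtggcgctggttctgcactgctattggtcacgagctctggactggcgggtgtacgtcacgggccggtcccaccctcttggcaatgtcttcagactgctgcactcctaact
Slit2, chr5:47982905-47983154, plus strand: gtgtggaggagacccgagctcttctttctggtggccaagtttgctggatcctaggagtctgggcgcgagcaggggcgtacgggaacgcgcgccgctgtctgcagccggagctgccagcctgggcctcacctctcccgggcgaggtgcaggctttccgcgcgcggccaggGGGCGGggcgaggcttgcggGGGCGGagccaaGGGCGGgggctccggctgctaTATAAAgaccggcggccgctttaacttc
The Sema7a window held 2 GC boxes and 1 antioxidant element, the Plxnb1 window 4 GC boxes, the Epha4 window 1 GC box, and the Slit2 window 3 GC boxes and 1 TATA motif. Overlapping matches were counted separately. RefSeq windows were found for 58 of the 68 members (73 windows). A GC box was present in 71.2% of these windows, against 32.7% of all 32851 windows, and the median GC content was 64.4% against 52.4%. The 12 windows of genes that rose held a GC box in 8 cases and the 12 windows of genes that fell in 10. A TATA motif was found in 2.74% of the guidance windows and in 12.4% of all windows, an antioxidant element in 11.0% and 10.2%, an AP-1 motif in 4.11% and 6.75%, and an E box in 4.11% and 6.02%. The GLI motif was in 0 of the 73 windows and in 0.225% of all windows. These matches describe letters in a short window and not binding sites.

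Class 3 semaphorins, the secreted ligands, went both ways. Sema3a, a classical repellent that acts through neuropilin-1 and A-type plexins, stood at 0.78, 0.56 and 0.63 in control cells and at 1.42, 1.26 and 1.26 with GGCT (experiments 1 to 3). Every GGCT array was above every control array, and the difference was 0.66 ± 0.10 (SE, adjusted p = 0.00407). A further Sema3a probe differed by 0.52 (adjusted p over all probes 0.0511). Sema3b, a secreted semaphorin known as a tumour suppressor in lung, stood at 1.63, 1.62 and 1.66 in control cells and at 0.73, 0.37 and 0.64 with GGCT. It fell 2.08-fold (log2 difference -1.05 ± 0.11, adjusted p = 0.00130). Sema3f, a neuropilin-2 ligand, was not called (-0.44, adjusted p = 0.100) but passed once the experiment number was a block (adjusted p = 0.00880). Its further probe, above background on all arrays, differed by -0.04 (adjusted p over all probes 0.868). Sema3b and Sema3f lie near each other on the chromosome, with 3 protein-coding genes between them. Of the remaining class 3 genes Sema3c, Sema3d, Sema3e and Sema3g could not be tested, since each missed the background limit on at least 1 array of either group.

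Membrane semaphorins held the largest increase. Sema7a, a GPI-anchored semaphorin that binds integrins and plexin C1, had control values of -2.39, -1.29 and -2.08 and GGCT values of 0.60, 1.96 and 1.12. The groups were far apart, and within each group experiment 2 was the highest array. The increase was 8.83-fold (log2 difference 3.14 ± 0.42, adjusted p = 0.00279), 2.98 on slide 1, which carried experiment 1, and 3.22 on slide 2, which carried experiments 2 and 3. Plxnc1, its plexin, was above background on 1 of 3 arrays in each group and was not tested.

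Sema4g, a class 4 membrane semaphorin, stood at -3.16, -2.99 and -3.03 in control cells and at -1.04, -1.13 and -0.91 with GGCT. The arrays of a group lay close together, and the gene rose 4.08-fold (2.03 ± 0.10, adjusted p = 7.74e-05). With a normexp background correction, whose added offset compresses dim probes, the difference was 1.21. The class 6 genes Sema6b (0.98 ± 0.16, adjusted p = 0.00590) and Sema6c (0.92 ± 0.18, adjusted p = 0.0100) rose as well. Sema6b is dim, and with the normexp background its difference was 0.26 (adjusted p = 0.132), so that call was lost. A further probe of Sema6c, detected on all 6 arrays, differed by 0.25 (adjusted p over all probes 0.0988), and with the mean of its probes Sema6c differed by 0.59.

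Sema4a, a semaphorin of immune cells and retina, was the single membrane semaphorin that fell (-0.33 ± 0.10, adjusted p = 0.0460), and a further probe of it differed by 0.08. Sema4c, Sema5a and Sema5b differed by -0.12, 0.22 and 0.15 and were not called, although Sema5a passed with the experiment number as a block (adjusted p = 0.0295). The 2 further Sema4c probes differed by 0.46 and 0.12, against the sign of the brightest, and a further Sema5a probe by 0.01. Sema6a was lower on every GGCT array than on any control array (difference -0.82, adjusted p = 0.0922), and passed with the block (adjusted p = 0.0118). Its probe is dim, above background on 2 of the 3 GGCT arrays, and its further probe was above background in 0 of 6 readings. With the normexp background Sema6a differed by -0.32 (adjusted p = 0.11). Sema4d, a ligand of plexin B1, was above background on 2 control arrays and on no GGCT array and was not tested. Its signals were -5.12, -4.78 and -5.34 against -7.49, -7.29 and -6.93.

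Plexins, the semaphorin receptors, also went both ways. Plxnb1 had control values of -1.37, -1.45 and -1.43 and GGCT values of 0.23, 0.24 and 0.32. No array came close to the other group, and the gene rose 3.21-fold (1.68 ± 0.08, adjusted p = 7.07e-05), with 1.60 on slide 1 and 1.72 on slide 2. It was the only receptor among the members that was called higher. Plxna2, a receptor for class 3 and class 6 semaphorins, stood at 2.02, 1.95 and 1.91 in control cells and at 1.15, 1.08 and 0.96 with GGCT. It fell by 0.89 ± 0.09 on the log2 scale (adjusted p = 0.000934), and its further probe differed by -0.92. Plxnd1, known as a receptor for Sema3e in vessels, fell by 0.56 ± 0.12 (adjusted p = 0.0156), while its further probe differed by -0.23 (adjusted p over all probes 0.384). Plxna4 (0.61, adjusted p = 0.0508), Plxnb2 (-0.48, adjusted p = 0.0713) and Plxnb3 (0.71, adjusted p = 0.470, above background on 1 control array) were not called, and passed with the experiment number as a block (adjusted p = 0.0124, 0.00450 and 0.0241). With the normexp background Plxnb3 differed by -0.0004. Plxna1 and Plxna3 differed by 0.10 and -0.02.

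Neuropilins were not called on their brightest probes, but 1 of them gave different answers on different probes. Nrp1, the co-receptor of Sema3a and of VEGF-A, stood at 4.01, 3.67 and 3.77 in control cells and at 4.0, 3.60 and 3.84 with GGCT. Its difference was 0.00 (95% confidence interval -0.35 to 0.34), and its other 2 probes differed by -0.06 and 0.02.

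Nrp2, the co-receptor of Sema3f, stood at 5.52, 6.02 and 5.94 in control cells and at 5.37, 6.0 and 5.77 with GGCT on its brightest probe (difference -0.11, 95% confidence interval -0.61 to 0.39). The second Nrp2 probe read 4.68, 4.55 and 4.63 without and 2.56, 2.61 and 2.55 with GGCT. That is a 4.13-fold decrease (-2.05 ± 0.08, adjusted p over all probes 3.88e-05), with -2.12 on slide 1 and -2.01 on slide 2. The third Nrp2 probe read -2.20, -1.77 and -1.84 against -4.29, -4.38 and -4.71, a 5.75-fold decrease (-2.52 ± 0.16, adjusted p over all probes 0.000205). On 2 of the 3 GGCT arrays it exceeded background. The 3 probes are assigned to 3 different RefSeq transcripts of Nrp2, and the sequences of the probes were not analysed here. With the mean of its probes Nrp2 differed by -1.56 (adjusted p = 0.000364). The further Nrp2 probes were singled out after their values were seen.

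**Figure D2:**
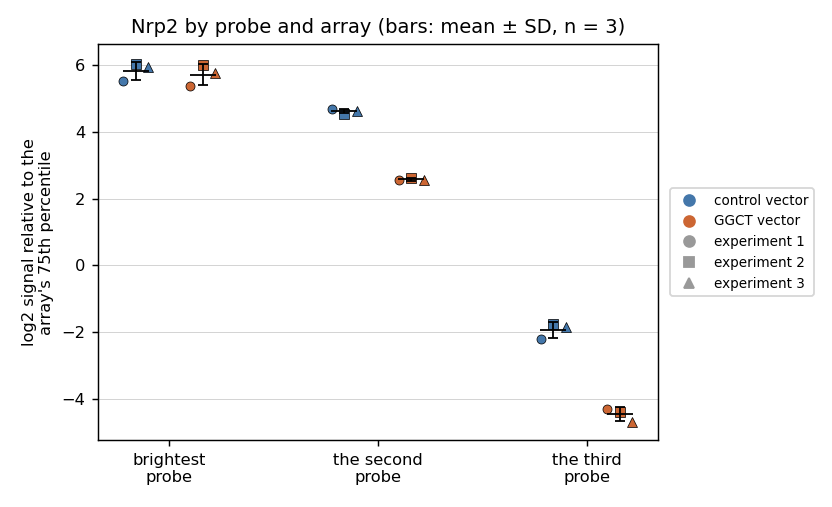
Log2 signal relative to the array's 75th percentile (vertical axis) for the 3 probes of Nrp2, with 1 symbol an array, its shape giving the experiment, and bars giving the mean ± SD (n = 3). The brightest probe differs by -0.11 between groups and the other 2 by -2.05 and -2.52.

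Among the tested Eph receptors 2 fell and 0 rose. These were 1 of 4 EphA and 1 of 4 EphB receptors, 25% called in each, where 34.8% of all genes tested were called. Epha4, a receptor that binds ephrins of both classes, stood at -1.12, -1.31 and -1.43 in control cells, while no GGCT array saw it well above background (-7.16, -6.15 and -6.82). It was at least 12.4-fold lower, a bound that sets the lowest signal of probes above background in place of the GGCT value where that was lower. The measured log2 difference was -5.42 ± 0.26 (adjusted p = 8.02e-05), and -1.94 with the normexp background. A gene seen on all arrays of the control group and on none of the other was 1 of 47 members, against 1.10% of all genes tested, and 0 members showed the opposite pattern, against 0.673%. Epha2, Epha6 and Epha7 differed by 0.03, -0.37 and -0.05 and were not called, but Epha6 passed with the experiment number as a block (adjusted p = 0.0463). Epha6 and Epha7 each rest on 1 of 4 probes, since the other 3 were above background in 0 and in 1 of 18 readings.

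Ephb2, a receptor for B-type ephrins, stood at 2.39, 2.02 and 2.29 in control cells and at 1.39, 1.43 and 1.48 with GGCT. It fell by 0.80 ± 0.12 on the log2 scale (adjusted p = 0.00377), on 2 probes. The other B receptors Ephb3, Ephb4 and Ephb6 differed by -0.13, 0.20 and 0.24 and were not called. Ephb4 passed with the block (adjusted p = 0.0367), and its further probe differed by 0.33 (adjusted p over all probes 0.0370).

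Ephrin ligands were higher more often than lower, but they are few. Of 5 A-type ephrins 2 were higher and 1 lower, and of 3 B-type ephrins 2 were higher and 0 lower. Of all genes tested 17.5% were higher and 17.3% lower. Efna4 stood at -0.03, -0.13 and -0.13 in control cells and at 1.03, 0.68 and 0.75 with GGCT, and Efnb1 at -0.36, -0.53 and -0.55 against 0.53, 0.33 and 0.38. The groups were apart for both. Efna4 rose 1.89-fold (0.92 ± 0.11, adjusted p = 0.00219) and Efnb1 1.86-fold (0.89 ± 0.10, adjusted p = 0.00137). Efna5, an A-type ephrin that also activates Ephb2, rose by 0.59 ± 0.10 (adjusted p = 0.00750), and its other 2 probes differed by 0.59 and 0.68. Efnb3 rose by 0.45 ± 0.14 at the edge of the threshold (adjusted p = 0.0497), and this call was lost in 17 of 22 alternative runs. Efna1, known as a ligand of Epha2, fell by 0.43 ± 0.09 (adjusted p = 0.0141). Efna1, Efna3 and Efna4 lie next to each other with 0 protein-coding genes between them. The first fell, the last rose, and Efna3 differed by 0.16 (adjusted p = 0.248). A dim further probe of Efna3, above background with GGCT alone, differed by 1.14 (adjusted p over all probes 0.0267). Efna2 and Efnb2 differed by -0.09 and 0.15 and were not called.

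**Figure D3:**
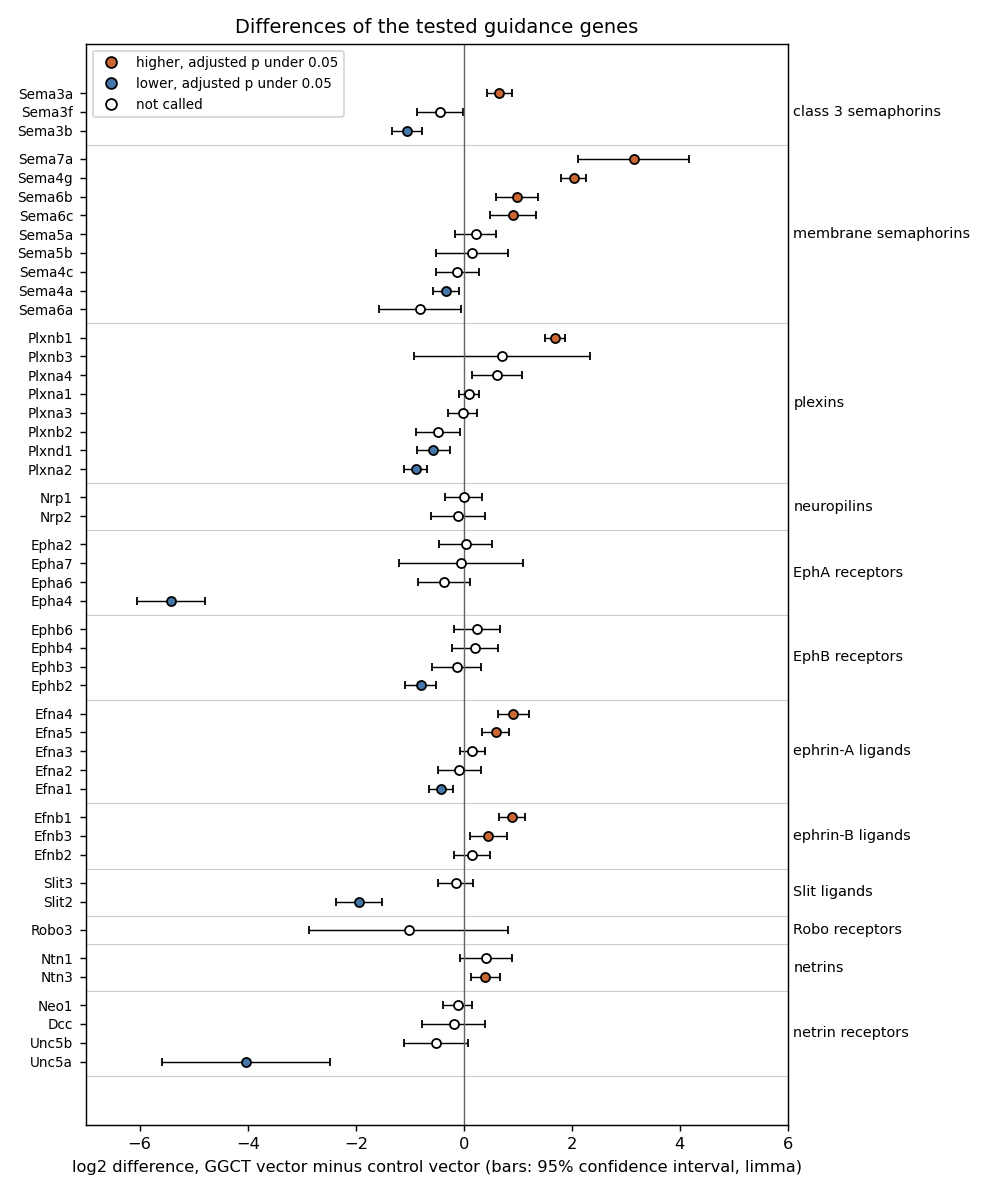
Log2 difference, GGCT vector minus control vector (horizontal axis), of the 47 tested guidance genes grouped by family; points are means of 3 against 3 arrays, bars are 95% confidence intervals and filled points passed the limma test. In all 11 genes are filled on the right and 9 on the left, and the points of Epha4 and Unc5a rest on GGCT values of which 0 and 1 of 3 were above background.

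Slits and Robos were mostly dim, apart from 2 of the ligands. Slit2 stood at 4.05, 3.65 and 3.63 in control cells and at 2.04, 1.89 and 1.57 with GGCT, with no overlap. It fell 3.84-fold (-1.94 ± 0.17, adjusted p = 0.000678), with -2.0 on slide 1 and -1.91 on slide 2. A further Slit2 probe above background on all arrays differed by -2.20 (adjusted p over all probes 0.00130). Slit3 stood at 1.47, 1.23 and 1.26 against 1.40, 1.08 and 1.03, a difference of -0.15 (95% confidence interval -0.47 to 0.17). Of the receptors, Robo3 alone was tested, and its difference of -1.02 was smaller than its interval (-2.86 to 0.81). Robo1 and Robo2 were above background on 1 control array each, and on 0 and 1 GGCT arrays.

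Netrins and their receptors gave 1 call in each direction. Unc5a, a receptor that mediates repulsion by netrin-1, stood at -1.84, -2.14 and -1.82 in control cells and at -4.41, -6.88 and -6.61 with GGCT, where 1 array was above background. It was lower on every GGCT array (log2 difference -4.03 ± 0.64, adjusted p = 0.00510), and the difference was -1.37 with the normexp background. Since 2 of the 3 GGCT values were not above background, the size of the decrease is uncertain. Ntn3 rose by 0.40 ± 0.11 (adjusted p = 0.0353), with 0.58 on its further probe. Ntn1, the best known netrin, was above background on 2 control arrays and on 3 GGCT arrays, with a difference of 0.41 (adjusted p = 0.170) that passed with the experiment number as a block (adjusted p = 0.0238) and was -0.0040 with the normexp background. Neo1, a receptor of netrins and of repulsive guidance molecules, stood at 1.95, 2.05 and 2.04 against 1.73, 2.07 and 1.90. Its difference was -0.11 (95% confidence interval -0.38 to 0.16). Unc5b was lower on every GGCT array but was not called (-0.51, adjusted p = 0.160). Dcc was not called on its brightest probe (-0.19, adjusted p = 0.595), which was above background on all arrays, while the other 3 Dcc probes were above background in 1 of 18 readings. The mean of the brightest probe was 8.28 in control cells and 8.09 with GGCT, while the other 3 had control means from -6.99 to -5.69. Whether the bright probe reads Dcc transcripts was not tested. Unc5c and Unc5d were not tested.

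In all, 21 members were not tested. For 8 of them (Epha3, Epha5, Ephb1, Ntn4, Sema3d, Sema3e, Sema4f and Unc5d) no probe was above background on any array. The other 13 were above background on some arrays, but not on all of a group. Of the 27 tested members that were not called, 21 had a 95% confidence interval that lay within a 2-fold difference in either direction, and 6 had an interval that reached beyond it. These intervals hold for the brightest probe alone. Nrp2 and Efna3 are among the 21, but further probes of Nrp2 differed by -2.05 and -2.52 and 1 of Efna3 by 1.14. Dcc and Epha6, also among the 21, each rest on 1 tested probe of 4.

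The direction was the same on both slides for all 20 called genes and for 23 of the 27 that were not called. For the 20 called genes and for 5 of those not called this had to be so, since their groups did not overlap, and it adds no separate support. The share over all genes was not counted. Slide and scan coincide here, since slide 1 held experiment 1 of both groups and slide 2 held experiments 2 and 3.

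**Figure D4:**
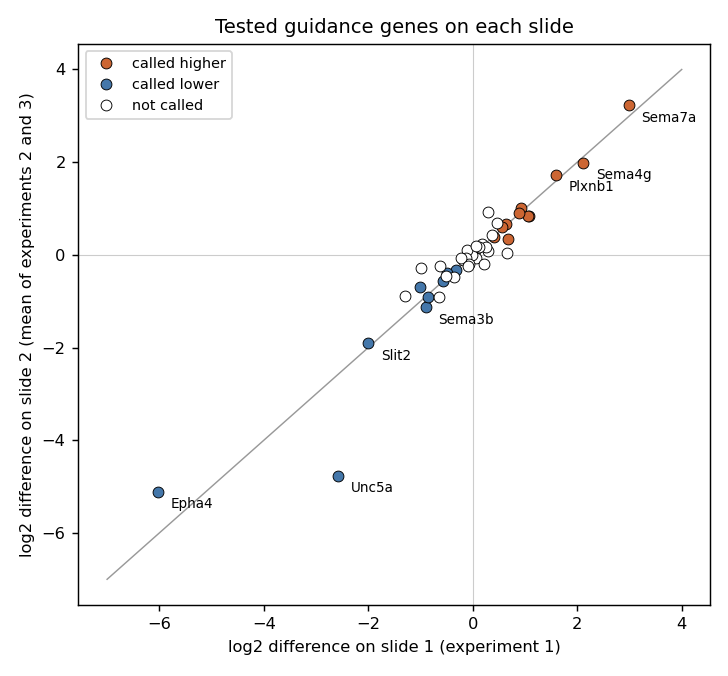
Log2 difference on slide 2, the mean of experiments 2 and 3 (vertical axis), against that on slide 1, experiment 1 (horizontal axis), for the 47 tested guidance genes, with the line of equal differences. The called genes have the same sign on both slides, which follows from their groups not overlapping. The positions of Unc5a and Epha4 rest on GGCT values of which 1 and 0 of 3 were above background.

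Leaving out experiment 2 or 3 gave fewer calls, among the members as among all genes, whereas leaving out experiment 1 gave 12 higher and 11 lower members. Calls over all 23774 genes tested also rose without experiment 1, to 4607 higher and 4553 lower, from 4164 and 4110. Epha4, Plxna2, Plxnb1, Sema3b, Sema4g and Slit2 stayed past the threshold in all alternatives run for them. Without both arrays of experiment 3, 8.08% of all genes tested were called, and the remaining 14 calls were lost, with adjusted p from 0.0504 (Efnb1) and 0.0571 (Sema7a) to 0.303 (Sema4a). All 14 kept their direction, and their log2 differences were 0.906 (Unc5a) to 1.33 (Efnb3) times those reported. Without both arrays of experiment 2, when 12.7% of all genes tested were called, 9 were lost, among them Unc5a (adjusted p = 0.0648) and Efna5 (0.0767), with the same direction and log2 differences 0.911 to 1.13 times those reported. Single arrays ended 5 calls. Efna1 was lost without control array 3 (adjusted p = 0.0608), and Plxnd1 without control array 3 (0.0558), GGCT array 2 (0.0521) or GGCT array 3 (0.0587). Sema4a was lost without control array 1 (0.114), 2 (0.0760) or 3 (0.118) or GGCT array 2 (0.115) or 3 (0.143). Ntn3 was lost without control array 1 (0.0681), 2 (0.113) or 3 (0.0766) or GGCT array 1 (0.0809) or 3 (0.114). Efnb3 was lost without control array 1 (0.0928) or 2 (0.122) or GGCT array 1 (0.0868), 2 (0.133) or 3 (0.106). An exact 2-sided permutation test gave p = 0.1 for each of the 20 called genes, the smallest that 3 against 3 arrays allow.

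Partners and signalling proteins of these systems were read from a list of 87 genes, chosen for their known roles. The list was made with earlier results of these data known, so its shares are descriptive and were not tested against those of all genes. Of 71 tested, 17 were higher and 20 lower, 52.1% against 34.8% of all genes, with a median difference of 0.05. With the experiment number as a block 26 of the 71 were higher and 28 of the 71 lower. Of all 23774 genes tested, 6490 (27.3%) were higher and 6195 (26.1%) lower with this block. Among the higher genes were Rgma, a repulsive guidance molecule that binds Neo1 (2.69-fold, adjusted p = 0.000214), the receptor kinases Flt1, which binds VEGF (log2 difference 3.27, adjusted p = 0.000310), and Met, a partner of B-type plexins (1.97-fold). Mst1r, a kinase related to Met, was at least 3.07-fold higher, with no control array above background. The adaptors Anks1, which binds Eph receptors, and Nck2 rose by 0.65 and 0.52 on the log2 scale. For Flt1, 2 of the 3 control arrays exceeded background, and the difference was 1.98 with the mean of all probes and 1.37 with the normexp background. That of Mst1r was 0.54 with the normexp background (adjusted p = 0.00561). A further probe of Rgma differed by 0.06.

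Among the lower pathway genes were the Rnd GTPases Rnd3 (4.93-fold, adjusted p = 3.71e-05) and Rnd1 (3.59-fold), which oppose RhoA signalling, while Rnd2 differed by 0.09 and was not called. Mical1, an oxidoreductase that acts on actin downstream of plexins, fell 12.9-fold (adjusted p = 9.05e-05), but a further probe of it differed by 0.04. The actin-binding Ablim1, linked to netrin signalling, had a log2 difference of -3.70 with 1 of the 3 GGCT arrays above background, and of -1.40 with the normexp background (called in both). Myo10, a motor that carries netrin receptors, fell 2.39-fold, and the Rac activator Dock1 1.73-fold. These 12 genes were named by their adjusted p, the 6 smallest in each direction.

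**Figure D5:**
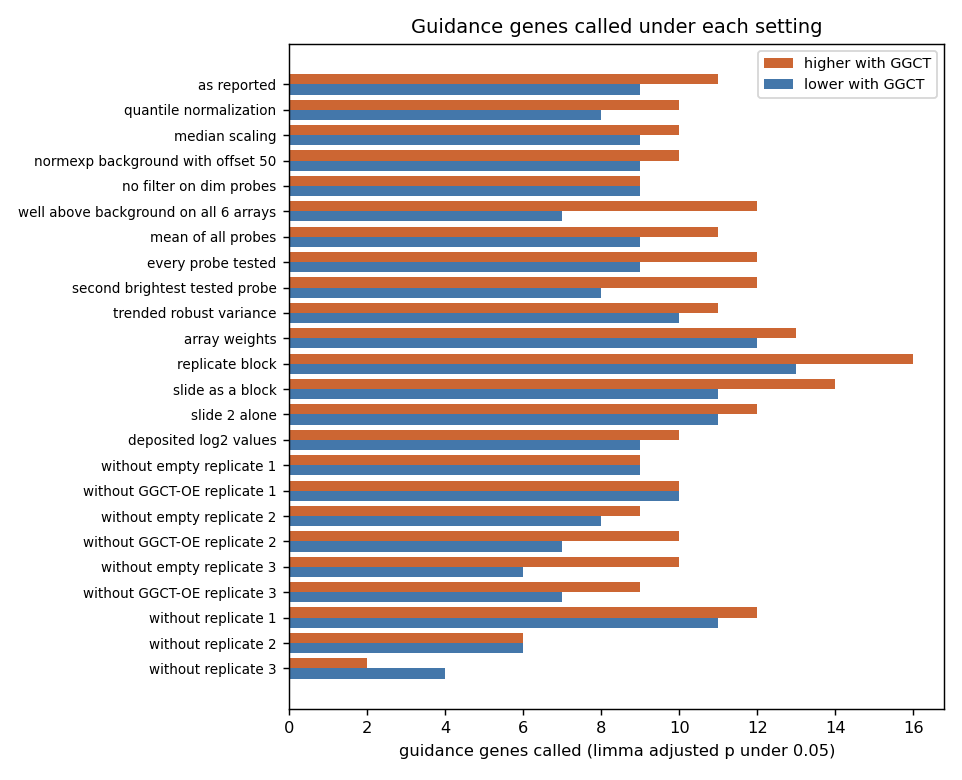
Number of guidance genes called higher and lower (horizontal axis, limma adjusted p under 0.05) as reported and under each alternative (vertical axis). The counts run from 2 higher and 4 lower without experiment 3, shown as replicate 3, to 16 higher and 13 lower with the replicate block.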

How the data were processed

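Spot intensities in the scanner files came from Agilent Feature Extraction (12.1.0.3), as deposited by the authors and per the file headers, after subtraction of background and detrending. The deposited series table holds log2 values equal to the log2 intensity of each array minus a constant. It was used as an alternative, and its column medians lay between -3.87 and -3.69. From 62976 spots an array, 3671 control spots and 578 outlier-flagged spots (over 6 arrays) were left out and spots of a probe averaged, leaving 56570 probes, of which 34504 (60.99%) were named by RefSeq accession in the table of GRCm38.p6. The array's grid names another build, so only promoter windows carry coordinates.

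Each array's 75th percentile was subtracted from the log2 intensity. Each gene was read from its brightest probe, and tested where all 3 arrays of either group saw this probe well above background. The test was limma's (version 3.58.1, R 4.3.3, lmFit, eBayes, 2-sided, no block) over 23774 genes, with Benjamini-Hochberg adjustment at 0.05, and tested on simulated data. There, with 200 genes changed, 54% of changes of 1 on the log2 scale and 95% of changes of 2 were recovered, with 5 false calls. A 2-fold change could thus be missed. Far fewer genes were changed there than were called in the data. Same-numbered arrays deviated together (correlations 0.731, 0.453 and 0.358 for numbers 1 to 3), as did arrays of unlike number on slide 2 (0.299 and 0.342). Arrays on different slides had correlations from -0.556 to -0.465. These values do not single out the titles' numbers as pairs, and whether number or slide matters was not tested. Reported values therefore come from the fit without a block, and values blocked by number are given where a call changed. Blocking on slide instead gave 14 higher and 11 lower guidance genes, and 6562 higher and 6191 lower among all 23774 genes tested. The members, lists and rules were chosen with earlier results of these data known. By the naming rule, values on each array are given for members called at 2-fold or more, those seen in 1 group alone, Neo1 and the neuropilins, with up to 3 examples a subfamily besides and 6 pathway genes a direction. The other members were named after their values were seen. Precision is limited by there being 3 arrays a group.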

Additional observations from a re-analysis of the deposited data

How the results depend on the processing

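The 22 alternatives changed the scaling, background correction, filter, probe rule, variance model, blocks, source of values or the arrays used, and slide 2 alone is the same run as leaving out replicate number 1. Guidance genes called higher numbered 11, and 2 to 12 when arrays or replicate numbers were left out. Those called lower numbered 9, and 4 to 11. Pathway genes called higher numbered 17, and 4 to 18 with arrays left out, 9 with no filter on dim probes and 26 with the replicate block. Those called lower numbered 20, and 8 to 20. With the replicate block 16 guidance genes were higher and 13 lower (61.7% called, against 53.4% of all genes tested), and 0 of the 20 calls were lost. The 9 genes gained with this block are named beside their values, and it changed no other call of a guidance gene. A reading of each gene from its second brightest tested probe, chosen after seeing the data, gave 12 higher and 8 lower, and among the called genes named turned the sign for Sema4a (0.0753) and Mical1 (0.0399). Among the guidance genes not called it turned 4 (Ephb6, Nrp1, Plxna3 and Sema4c). The exact permutation test cannot go below 0.1 here and is not counted. The cause of these changes was not tested. Of the guidance genes that were not called, 12 passed in at least 1 of the 22 alternatives and 15 in none. With the normexp background the differences of Sema6b and Efnb3 were 0.26 and 0.19, and both calls were lost.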

Other observations

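Among the 47 tested guidance genes 19 had at least 2 tested probes. For the 9 of these that were called, 9 of 10 further probes had the sign of the brightest probe and 6 passed over all probes. For the 10 that were not called, 4 of 13 further probes passed, and these belong to Nrp2 (2 probes), Efna3 and Ephb4. These counts were made after the probes' values were seen. The same shares were not counted over the further probes of all genes, so they do not set the guidance genes apart.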
